A study of Mus musculus with 16 samples.

Results

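The 38 genes described here encode the proteins that hold epithelial cells to one another and to the basement membrane. They were taken by name, from a list of junction genes. That list and the marker lists used below were chosen with earlier results of these data known. Shares of these genes set beside all genes are therefore not those of a blind choice. For each gene, the probe set (a group of array probes for 1 transcript) that pairs with its symbol alone was read, and where a gene had several, the one with the highest mean signal over the 16 samples. All 38 were found, of 19938 genes with such a probe set: 13 claudins, 6 other tight junction genes, 3 genes of adherens junctions and EpCAM, 12 desmosome genes and 4 hemidesmosome genes. Signals are log2 values, and a level of 1 gene cannot be set against that of another, since each probe set has its own brightness. Of the 38 genes, 37 had a signal above 5 in all 16 samples and were tested. *Cldn2*, which in other epithelia forms a pore for cations, stayed between 4.52 and 4.90, below that minimum in every sample, and was not tested.

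The samples were mandibular molar germs dissected at E14.5 from C57Bl6 mice, 8 pools from *Rsk2-/Y* embryos and 8 from wild-type (WT) embryos. *Rsk2-/Y* males lack RSK2, a kinase of the ERK pathway encoded on the X chromosome by *Rsk2* (*Rps6ka3*), and the study's controls were *Rsk2+/Y* male littermates. The labels give 4 tooth germs to a pool and the methods 2 embryos, so each value is an average over embryos, and nothing in the sources used here restricts the knockout to 1 cell type. Sample names fall into the series AZN and ABH, each with 4 pools of either genotype, and what the series are is not stated. Pools are numbered below from 1 to 8 within a genotype, as names only.

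A molar germ at this stage, the cap stage, is an epithelium that folds around a condensed mesenchyme. Its epithelial cells are joined near their apical side by tight junctions, where claudins and occludin seal the gap between neighbours and ZO proteins tie them to actin. Below these lie adherens junctions, built on cadherins, and desmosomes, which join the keratin filaments of neighbouring cells, while hemidesmosomes anchor basal cells to laminin in the basement membrane. Many of these genes are low in mesenchyme. In whole germs fewer epithelial cells and less RNA per cell cannot be told apart.

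The arrays were alike, with correlations of 0.976 to 0.997 between samples and medians of 6.74 to 6.94. *Rps6ka3* itself had signals of 9.74 to 10.4 in *Rsk2-/Y* pools and of 9.61 to 10.2 in WT pools; the probes lie along the whole gene and so do not test the genotype labels. A pair of AZN samples stood apart by low epithelium marker means. *Rsk2-/Y* pool 3 had the lowest epithelium marker mean of all samples (8.97, over 19 genes such as keratins) and the highest skeletal muscle marker mean (10.34, over 14 genes). WT pool 6 had the lowest epithelium mean of the WT pools (9.13) and their highest muscle mean (9.30). In ABH, *Rsk2-/Y* pool 5 had a muscle mean of 9.885, the highest of that series and above that of WT pool 6. Its epithelium mean was 9.30. Results that rest on *Rsk2-/Y* pool 3 or on WT pool 6 are given with and without that pool. *Rsk2-/Y* pools 3 and 5, each with the highest muscle mean of its series, were also left out together.

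Promoters of 4 members are shown first: 3 hold a short element that recurs among these genes, and 1 does not. The E-box CAGGTG is the element through which the repressors SNAI1 and ZEB1 are known to act on *Cdh1* and other epithelial genes. Of the 38 genes, 19 have RefSeq promoter windows on GRCm38.p6, each of 300 bases, with 250 before and 50 after the transcript start. CAGGTG, on either strand (read as CACCTG on the other), was found in 14 of their 27 windows and in 11 of the 19 genes, and in 20.2% of 32851 windows of all genes. The 11 genes were *Cldn3*, *Cldn4*, *Cldn6*, *Cldn7*, *Ocln*, *Tjp3*, *Marveld2*, *F11r*, *Epcam*, *Dsp* and *Lamb3*. Those with windows but without the element were *Cldn1*, *Cldn2*, *Cldn5*, *Cldn10*, *Cldn11*, *Cldn12*, *Jup* and *Tjp1*, so genes of epithelium are in both sets. *Cdh1* has no window here. The median GC content was 59.3% in the members' windows and 52.7% in all windows, and its part in the share of windows with the element was not tested. AACCGGTT, a motif of grainyhead-like factors searched on both strands, was in 0 of the 27 windows and in 0.146% of all windows. A match is a run of letters and not a site shown to be bound. The windows of *Cldn6* (chr17:23679115-23679414, plus strand), *Cldn4* (chr5:134946885-134947184, minus strand) and *Epcam* (chr17:87635729-87636028, plus strand) hold 2 elements each, in capitals, and that of *Cldn5* (chr16:18776597-18776896, plus strand), the claudin of blood vessels, holds none.
Cldn6: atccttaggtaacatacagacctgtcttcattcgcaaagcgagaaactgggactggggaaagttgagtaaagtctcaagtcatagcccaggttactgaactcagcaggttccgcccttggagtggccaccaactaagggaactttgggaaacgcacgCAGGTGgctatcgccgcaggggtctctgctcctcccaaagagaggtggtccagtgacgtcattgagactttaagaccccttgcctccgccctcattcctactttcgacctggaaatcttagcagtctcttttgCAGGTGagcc
Cldn4: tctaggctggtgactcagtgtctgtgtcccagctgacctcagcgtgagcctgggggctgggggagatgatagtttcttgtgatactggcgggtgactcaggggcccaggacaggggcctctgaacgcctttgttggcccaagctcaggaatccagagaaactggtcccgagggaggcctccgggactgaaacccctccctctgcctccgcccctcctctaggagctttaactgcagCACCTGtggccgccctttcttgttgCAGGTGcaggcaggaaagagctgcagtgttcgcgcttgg
Epcam: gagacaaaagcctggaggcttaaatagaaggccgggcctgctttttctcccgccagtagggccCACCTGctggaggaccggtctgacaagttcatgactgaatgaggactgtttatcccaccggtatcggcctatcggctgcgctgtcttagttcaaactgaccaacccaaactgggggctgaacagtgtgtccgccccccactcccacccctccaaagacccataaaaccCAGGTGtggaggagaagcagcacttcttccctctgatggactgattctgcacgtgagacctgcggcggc
Cldn5: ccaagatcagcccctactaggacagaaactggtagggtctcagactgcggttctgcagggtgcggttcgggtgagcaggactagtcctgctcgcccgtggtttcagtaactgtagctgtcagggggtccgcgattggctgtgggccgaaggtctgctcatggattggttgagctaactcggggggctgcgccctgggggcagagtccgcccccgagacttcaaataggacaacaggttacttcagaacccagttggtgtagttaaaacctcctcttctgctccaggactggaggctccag

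Across all 16 samples, 36 of the 37 tested genes had a lower mean in *Rsk2-/Y* than in WT germs, by small amounts, and none passed the test. The question was whether germs without RSK2 differ in the RNAs of their cell junctions. The median log2 fold change, *Rsk2-/Y* minus WT, was -0.19 over the 37 genes and -0.02 over all 17215 genes tested, of which 60.3% were below 0. It was -0.14 for the claudins, -0.15 for the other tight junction genes, -0.22 for *Cdh1*, *Cdh3* and *Epcam*, -0.21 for the desmosome genes and -0.20 for the hemidesmosome genes. The desmosomal plakophilin *Pkp2* was the member above 0, at 0.04.

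**Figure D1:**
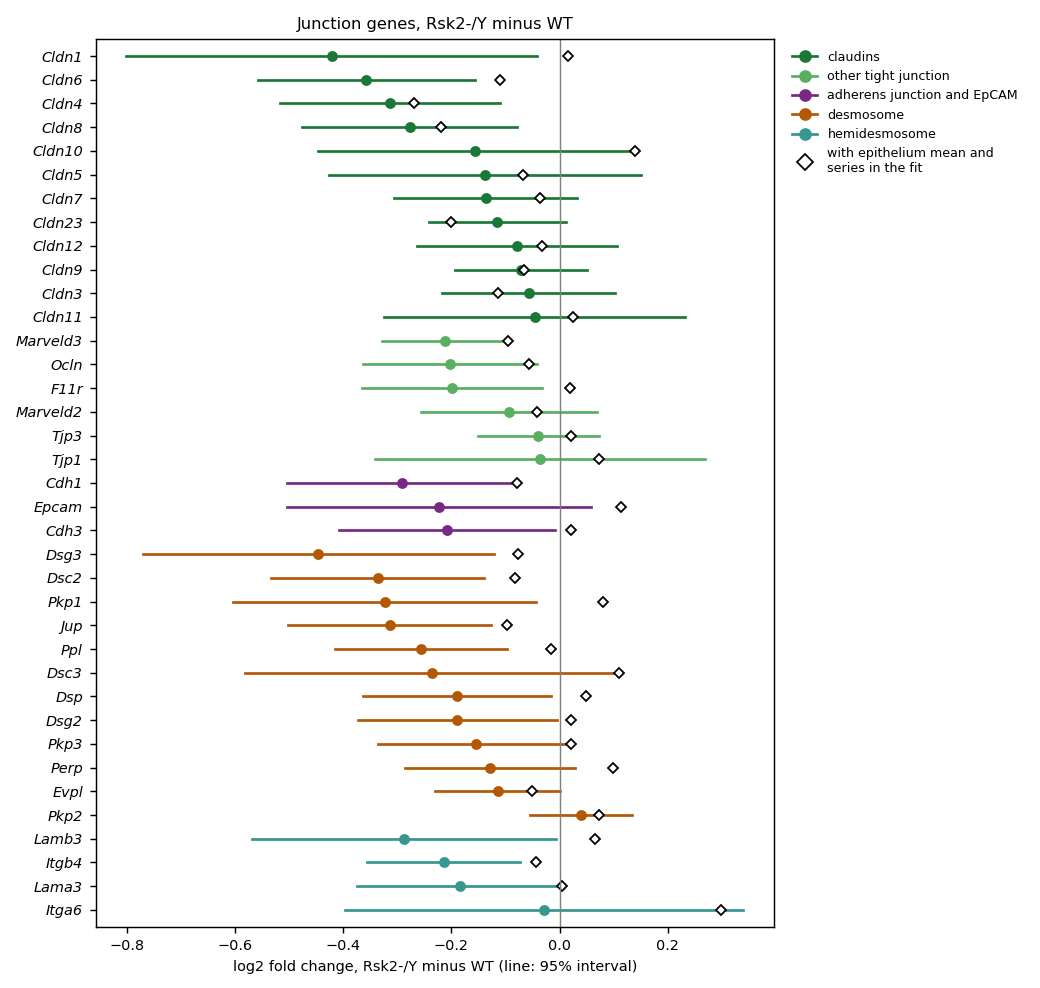
Log2 fold change of each of the 37 tested genes, *Rsk2-/Y* minus WT (filled points, 8 pools each, lines for 95% intervals), grouped by junction type. All filled points but that of *Pkp2* lie left of 0, and open diamonds, from a fit that also holds the epithelium marker mean and the series, lie on both sides of 0.

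With limma and Benjamini-Hochberg adjustment over all 19979 probe sets tested, 0 of 37 members were called lower (background 0% of genes). A call needed an adjusted p below 0.1 together with a change of more than 1.2-fold, and the smallest adjusted p of a member was 0.796. At an unadjusted p under 0.05, 18 of 37 were lower in *Rsk2-/Y*, beside 3.00% of all genes, and 0 of 37 were higher, beside 0.993%. Without WT pool 6 the count lower was 23 of 37, beside 873 of 17215 genes. Without *Rsk2-/Y* pool 3 it was 13 of 37, beside 509 of 17215. With the series as a block 0 of 37 passed (smallest adjusted p = 0.258). The methods' t-test gave 15 lower at that threshold (background 3.17%) and 0 after adjustment. Epithelium markers ran with these genes: 19 of 19 were below 0, with a median of -0.25, and their mean signal was 8.97 to 9.33 in *Rsk2-/Y* pools and 9.13 to 9.71 in WT pools. Skeletal muscle markers ran the other way, with 14 of 14 above 0, a median of 0.60, and mean signals of 7.69 to 10.34 in *Rsk2-/Y* pools and of 7.73 to 9.30 in WT pools. Mesenchyme markers had a median of 0.04, with 10 of 15 above 0, and endothelium markers one of -0.06, with 3 of 14 above 0. The part of tissue composition in the junction values was not tested here beyond the fits below.

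Among the claudins, *Cldn6*, a claudin of embryonic epithelia, had the smallest unadjusted p for genotype (0.00153, adjusted p = 0.796 from limma). In AZN germs its signal was 10.22, 10.41, 9.94 and 10.31 in the *Rsk2-/Y* pools and 10.50, 10.01, 10.62 and 10.73 in the WT pools. In ABH germs it was 10.20, 10.30, 10.29 and 10.26 in the *Rsk2-/Y* pools and 10.71, 10.71, 10.72 and 10.78 in the WT pools. The genotypes did not overlap in ABH and overlapped in AZN through the low WT pool 6. The log2 fold change was -0.36 (SE 0.10) over all pools, a fold change of -1.28. Without WT pool 6 it was -0.44 and passed (adjusted p = 0.0482), the only sample whose removal led to a call for any member.

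*Cldn4*, a sealing claudin, and *Cldn8*, which partners it in other epithelia, followed with log2 fold changes of -0.31 (SE 0.10, adjusted p = 0.969) and -0.28. *Cldn4* had a median of 8.96 in *Rsk2-/Y* pools, with a range of 8.70 to 9.28, and of 9.26 in WT pools, with a range of 9.06 to 9.66. All 8 *Rsk2-/Y* pools lay below the WT mean for both genes, although the ranges overlapped. *Cldn1*, the claudin that the barrier of skin depends on, had the largest difference of the 12 claudins tested, -0.42, with a 95% interval of -0.80 to -0.04. Its range was wide in either genotype, 9.18 to 10.06 in *Rsk2-/Y* pools and 9.145 to 10.83 in WT pools. The other claudins, *Cldn3*, *Cldn5*, *Cldn7*, *Cldn9*, *Cldn10*, *Cldn11*, *Cldn12* and *Cldn23*, lay between -0.16 and -0.05, with intervals that reach 0 in each.

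*Cldn5* and *Cldn11* are claudins of other cells. *Cldn5*, the tight junction claudin of endothelium, had a median of 8.67 in *Rsk2-/Y* pools (8.16 to 9.28) and of 8.77 in WT pools (8.40 to 9.21), a difference of -0.14 (SE 0.14). *Cldn11*, known from myelin and Sertoli cells, had a median of 8.23 in *Rsk2-/Y* pools (7.82 to 8.95) and of 8.28 in WT pools (8.01 to 8.59), a difference of -0.05 (SE 0.13). The ranges of the genotypes overlapped broadly for both.

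Of the other tight junction genes, *Marveld3*, a membrane protein related to occludin, had the smallest unadjusted p of all members (0.0013, adjusted p = 0.796 from limma). It had a median of 6.89 in *Rsk2-/Y* pools, with a range of 6.795 to 7.07, and of 7.09 in WT pools, with a range of 7.03 to 7.38. Its log2 fold change was -0.21 (SE 0.06), and all 8 *Rsk2-/Y* pools lay below the WT mean. Occludin itself (*Ocln*) was at -0.20 and *F11r*, which encodes the adhesion molecule JAM-A, also at -0.20, and neither passed after adjustment. Tricellulin (*Marveld2*), which seals the corners where 3 cells meet, had a median of 6.83 in *Rsk2-/Y* pools (6.52 to 6.97) and of 6.89 in WT pools (6.70 to 7.08). The ZO-1 gene *Tjp1* and the ZO-3 gene *Tjp3* were both at -0.04.

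E-cadherin (*Cdh1*), the adhesion receptor of epithelial adherens junctions, had a median of 9.86 in *Rsk2-/Y* pools (9.47 to 10.10) and of 10.17 in WT pools (9.71 to 10.53). The log2 fold change was -0.29 (SE 0.10, adjusted p = 1 from limma), and all 8 *Rsk2-/Y* pools were below the WT mean, though the ranges overlapped. P-cadherin (*Cdh3*), which lies beside *Cdh1* on the chromosome and is found in budding epithelia, was at -0.21. *Epcam*, a surface protein of simple and embryonic epithelia, had a median of 9.13 in *Rsk2-/Y* pools (8.395 to 9.39) and of 9.39 in WT pools (8.67 to 9.50). Its lowest sample in each genotype was the one with the lowest epithelium marker mean, and its difference was -0.22 (SE 0.13).

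The desmosome held the widest range of differences. The cadherin *Dsg3* had the largest of all 37 members, -0.45 (95% interval -0.77 to -0.12, adjusted p = 1 from limma). *Dsc2*, a desmosomal cadherin, had a median of 9.03 in *Rsk2-/Y* pools (8.80 to 9.25) and of 9.32 in WT pools (9.01 to 9.79), a difference of -0.34 (SE 0.09, adjusted p = 0.852). Plakoglobin (*Jup*), which links these cadherins to desmoplakin, had a median of 11.02 in *Rsk2-/Y* pools (10.63 to 11.13) and of 11.32 in WT pools (10.80 to 11.48), a difference of -0.31 (SE 0.09, adjusted p = 0.852). In both genes every *Rsk2-/Y* pool lay below the WT mean. Periplakin (*Ppl*), a plakin that binds keratins, had a median of 8.20 in *Rsk2-/Y* pools (7.84 to 8.28) and of 8.41 in WT pools (8.12 to 8.67), a difference of -0.26 (SE 0.08, adjusted p = 0.886). Desmoplakin (*Dsp*), the main link to keratin, had a median of 11.18 in *Rsk2-/Y* pools (10.87 to 11.34) and of 11.38 in WT pools (10.98 to 11.57), a difference of -0.19 (SE 0.08). Both genes again had all 8 *Rsk2-/Y* pools below the WT mean. The plakophilin *Pkp1* was at -0.32, and *Dsc3*, *Dsg2*, *Pkp3*, *Perp* (a membrane protein that desmosomes need) and envoplakin (*Evpl*) lay between -0.24 and -0.11.

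At the basement membrane, the integrin chain *Itgb4*, found in hemidesmosomes, was at -0.21 and the laminin chain *Lamb3* at -0.29, each with all 8 *Rsk2-/Y* pools below the WT mean. The laminin chain *Lama3* was at -0.18. *Itga6*, the partner chain of *Itgb4*, was at -0.03, with 3 of 8 *Rsk2-/Y* pools below the WT mean. *Itga6* is also known from endothelium and other cells.

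**Figure D2:**
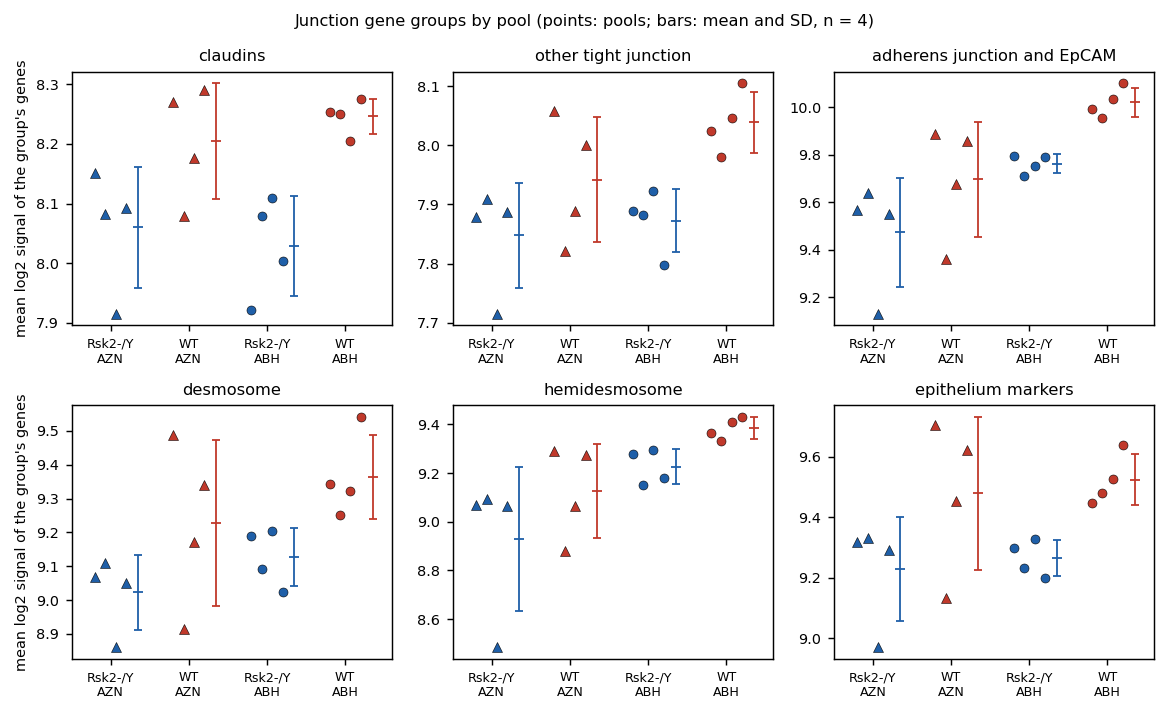
Mean log2 signal of the genes of each junction group, and of the epithelium markers, in each pool (points), with the mean and SD of 4 pools beside them. In ABH the *Rsk2-/Y* pools lie below the WT pools in all 6 panels, and in AZN *Rsk2-/Y* pool 3 and WT pool 6 are the lowest of their genotype in all panels.

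The series were then taken apart. In AZN the mean over all 37 genes was 8.35 to 8.62 in *Rsk2-/Y* pools and 8.50 to 8.87 in WT pools, and the genotypes overlapped. In ABH it was 8.57 to 8.70 in *Rsk2-/Y* pools and 8.79 to 8.93 in WT pools, with no overlap. The median difference was -0.17 in AZN and -0.18 in ABH, over 37 genes each, beside -0.0026 and -0.0327 over all genes. Of all genes, 51.3% were below 0 in AZN and 63.4% in ABH. In 33 of 37 genes the difference was below 0 in both series, in *Pkp2* it was above 0 in both, and in 3 the signs differed.

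Within AZN, 6 of 37 members were lower at an unadjusted p under 0.05 (background 1.40% of genes) and 0 passed after adjustment (smallest adjusted p = 1). *Cldn8* and *Lama3* were the 2 members lower in every AZN *Rsk2-/Y* pool than in any AZN WT pool, beside 0.807% of genes. Within ABH, 20 of 37 were lower at that threshold (background 8.92%), and *Cldn6* passed, at -0.47 (SE 0.05, adjusted p = 0.0373 from limma), beside 0.0116% of genes called lower. Non-overlap in ABH held for 17 members, beside 5.84% of genes: *Cldn1*, *Cldn6*, *Cldn7*, *Marveld3*, *F11r*, *Cdh1*, *Cdh3*, *Epcam*, *Dsc2*, *Dsc3*, *Dsg3*, *Jup*, *Pkp1*, *Ppl*, *Evpl*, *Itgb4* and *Lamb3*. None of the 37 was higher in every *Rsk2-/Y* pool of a series. The genotype difference was also compared between the series, as an interaction: of these terms, 0 of 37 passed in limma, 0 had an unadjusted p under 0.05 (background 3.98% of genes above 0 and 1.78% below), and the smallest adjusted p of a member was 0.836. For *Cldn6* the interaction was 0.22 (SE 0.17).

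**Figure D3:**
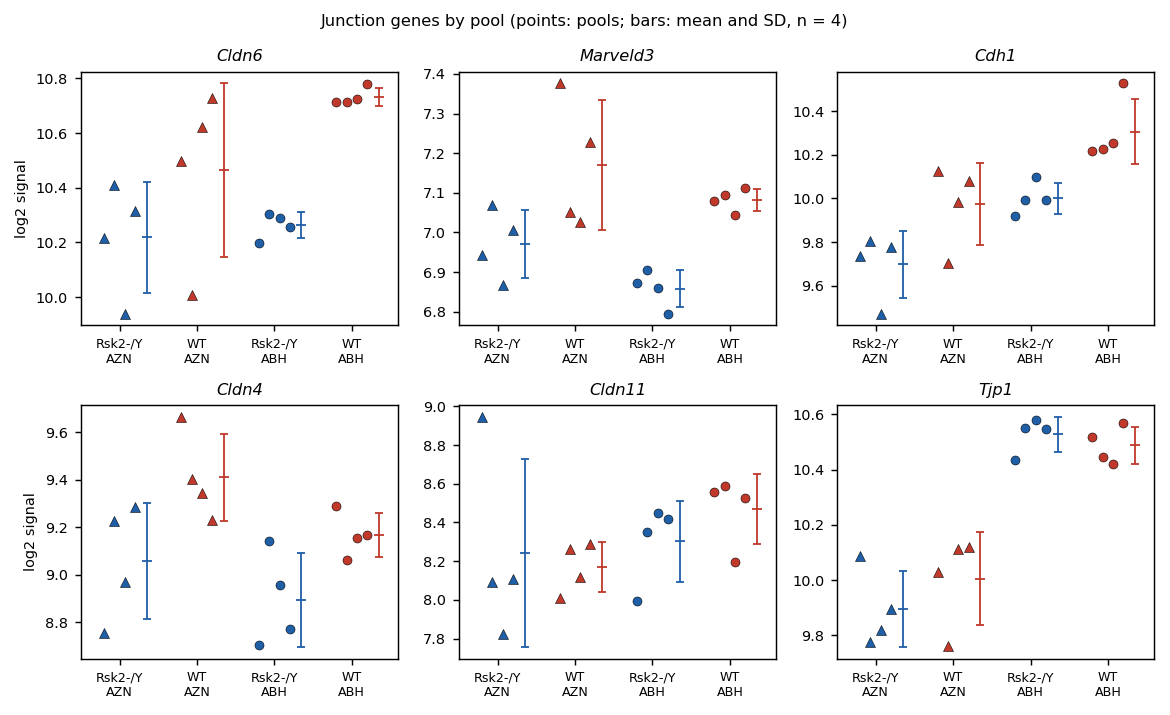
Log2 signal of *Cldn6*, *Marveld3*, *Cdh1*, *Cldn4*, *Cldn11* and *Tjp1* in each pool, with the mean and SD of 4 pools beside the points. *Cldn6* separates the genotypes in ABH, *Tjp1* separates the series, and *Cldn11* has 1 high AZN *Rsk2-/Y* pool at 8.95.

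Between the series, differences among the junction genes passed the test, most of them lower in AZN. With genotype in the fit, 9 of 37 members were lower in AZN than in ABH (background 10.3% of genes) and 1 was higher (background 5.77%). The fall was largest in *Tjp1*, at -0.56 (SE 0.06, adjusted p = 3.74e-06 from limma), with 9.76 to 10.12 in the AZN pools and 10.42 to 10.58 in the ABH pools. The series did not overlap for this scaffold gene. *Dsc3* fell by 0.53, *Itga6* by 0.55, *Cldn1* by 0.42, *Cldn10*, which forms ion channels in other epithelia, by 0.40, *Epcam* and *Dsg3* by 0.37 each, and *Cdh1* and *Lamb3* by 0.32 each. *Cldn5* rose by 0.45 (SE 0.09, adjusted p = 0.000621), with 8.78 to 9.28 in the AZN pools and 8.16 to 8.75 in the ABH pools. These ranges did not overlap, while the mean of the endothelium markers was 8.92 in AZN and 8.99 in ABH, and 9 of 14 of them were below 0.

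By group, all 3 genes of adherens junctions and EpCAM and all 4 hemidesmosome genes were below 0 in AZN minus ABH, and 7 of the 12 claudins tested were above 0. *Marveld2* was at 0.25 (SE 0.05, adjusted p = 0.000873), with 6.86 to 7.08 in the AZN pools and 6.52 to 6.90 in the ABH pools, and stayed below the fold minimum. *Pkp3*, *Cldn7*, *Cldn4*, *Cldn3* and *Evpl*, from 0.23 to 0.12, also had adjusted p-values under the threshold and too small a fold. On the lower side, *Pkp1* (fold change -1.199) and *Cldn12* (-1.194) were just under the fold minimum. Both passed as lower in AZN in some fits with a pool left out, such as that without WT pool 8. The epithelium markers as a whole were nearly even between series, with 9 of 19 above 0 and a median of -0.04. Skeletal muscle markers were above 0 in 14 of 14, with a median of 0.62. Since the labels do not say what the series are, tissue, handling and array effects cannot be told apart here.

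**Figure D4:**
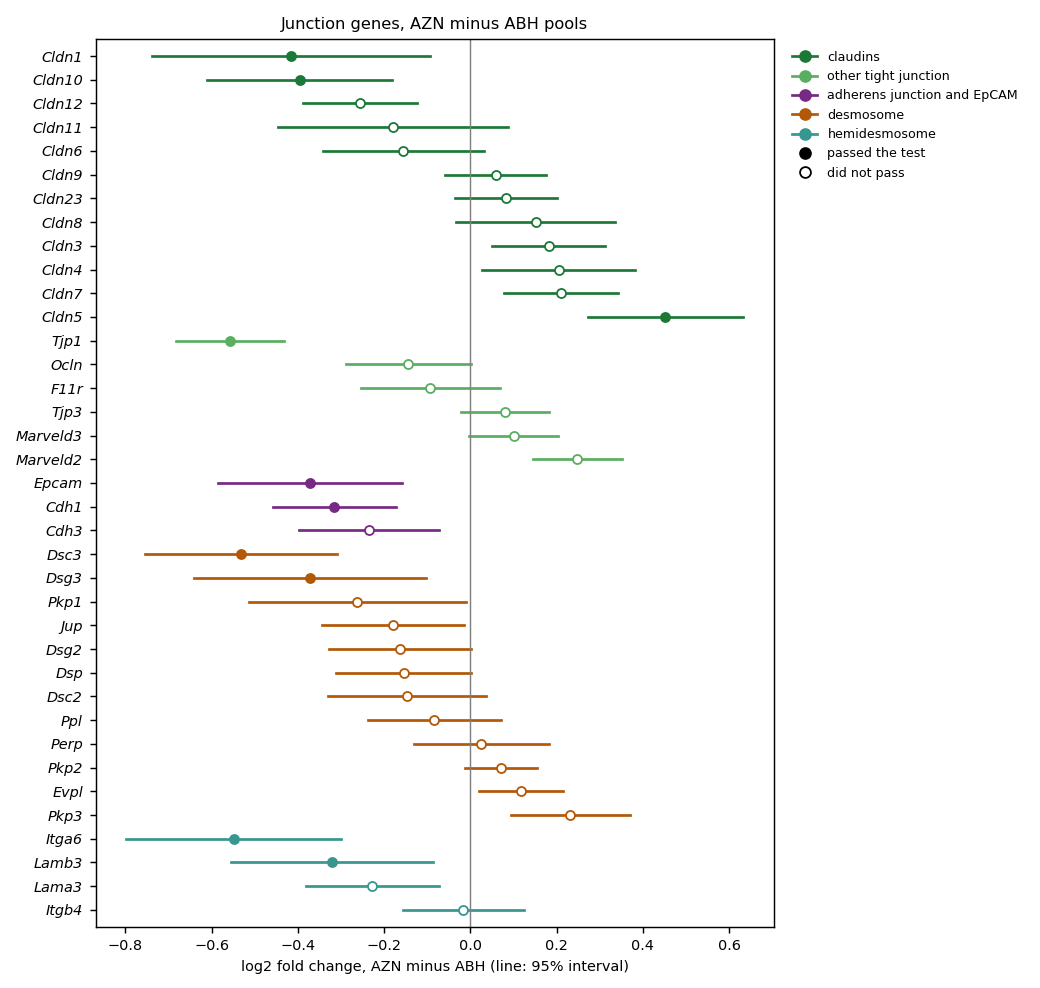
Log2 fold change of each tested gene, AZN minus ABH (8 pools each, genotype in the fit), with 95% intervals. Filled points passed the test, with *Cldn5* to the right of 0 and 9 genes to the left, from *Tjp1* at -0.56 to *Cdh1* and *Lamb3* at -0.32.

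Next, the junction genes were set against the epithelium content of the pools. The measure was the mean log2 signal of 19 epithelium markers, none of them a member, and the slope was fitted with genotype and series as covariates. Of 37 members, 35 had a slope above 0, beside 57.7% of all genes, and the median slope was 0.73, beside 0.05 over all genes. In limma 19 of 37 passed above 0 (background 0.861%) and 0 below 0, and 24 of 37 did so at an unadjusted p under 0.05 (background 7.24%). The count of calls rested on single pools: it was 4 without WT pool 6 (*Epcam*, *Lama3*, *Pkp1* and *Ppl*), where 0.0872% of all genes were called, 11 without *Rsk2-/Y* pool 3 (background 0.535%), and 13 to 19 without any other pool. It was 5 with no series in the fit (*Dsp*, *Lamb3*, *Perp*, *Pkp1* and *Ppl*, background 0.186%). With each array centred on its median it was 24 (background 11.9%), and the median slope of all genes moved to 0.25. Over these 16 fits the median slope of the members stayed between 0.62 and 0.80, and 33 to 35 members stayed above 0.

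By junction type, all 3 genes of adherens junctions and EpCAM passed, with slopes of 0.83 for *Cdh1* (SE 0.14, adjusted p = 0.0121), 0.90 for *Cdh3* and 1.32 for *Epcam* (SE 0.17, adjusted p = 0.00271). Of the desmosome genes 10 of 12 passed, led by *Pkp1* at 1.58 (SE 0.20, adjusted p = 0.00208), *Dsg3* at 1.44 and *Dsc3* at 1.36. A slope of 1 means that a gene moved as the markers did, and *Dsc2* (0.99), *Ppl* (0.94) and *Dsp* (0.93) lay near it. *Pkp2* (0.13) and *Evpl* (0.25) did not pass. *Lamb3* (1.38) and *Itga6* (1.28) passed among the hemidesmosome genes, while *Itgb4* and *Lama3* had slopes of 0.67 and 0.73 and did not pass (adjusted p = 0.148 for *Itgb4*).

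Of the tight junction genes, 3 of 12 claudins passed (*Cldn1* at 1.71, *Cldn10* at 1.16 and *Cldn6* at 0.97), as did 1 of the 6 others (*F11r* at 0.85). None of the tight junction genes passed without WT pool 6. *Cldn4* (0.17, 95% interval -0.48 to 0.82), *Cldn8* (0.23) and *Cldn9* (0.02) had slopes near 0, and *Cldn3* (-0.22) and *Cldn23* (-0.33) were the 2 members below 0. *Cldn3* and *Cldn4* lie beside each other on the chromosome, as do *Cldn6* and *Cldn9*. Whether claudins differ from desmosome genes in slope was not tested. Each gene was also set against the mean of the other members over the 16 pools, centred within series, as a description, since the points share RNA, array and dissection. Pearson's r was 0.98 for *Ppl*, 0.96 for *Cdh1*, 0.93 for *Pkp1* and 0.92 for *Dsp*, and it was 0.06 for *Cldn23*, -0.05 for *Cldn3* and -0.06 for *Pkp2*.

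**Figure D5:**
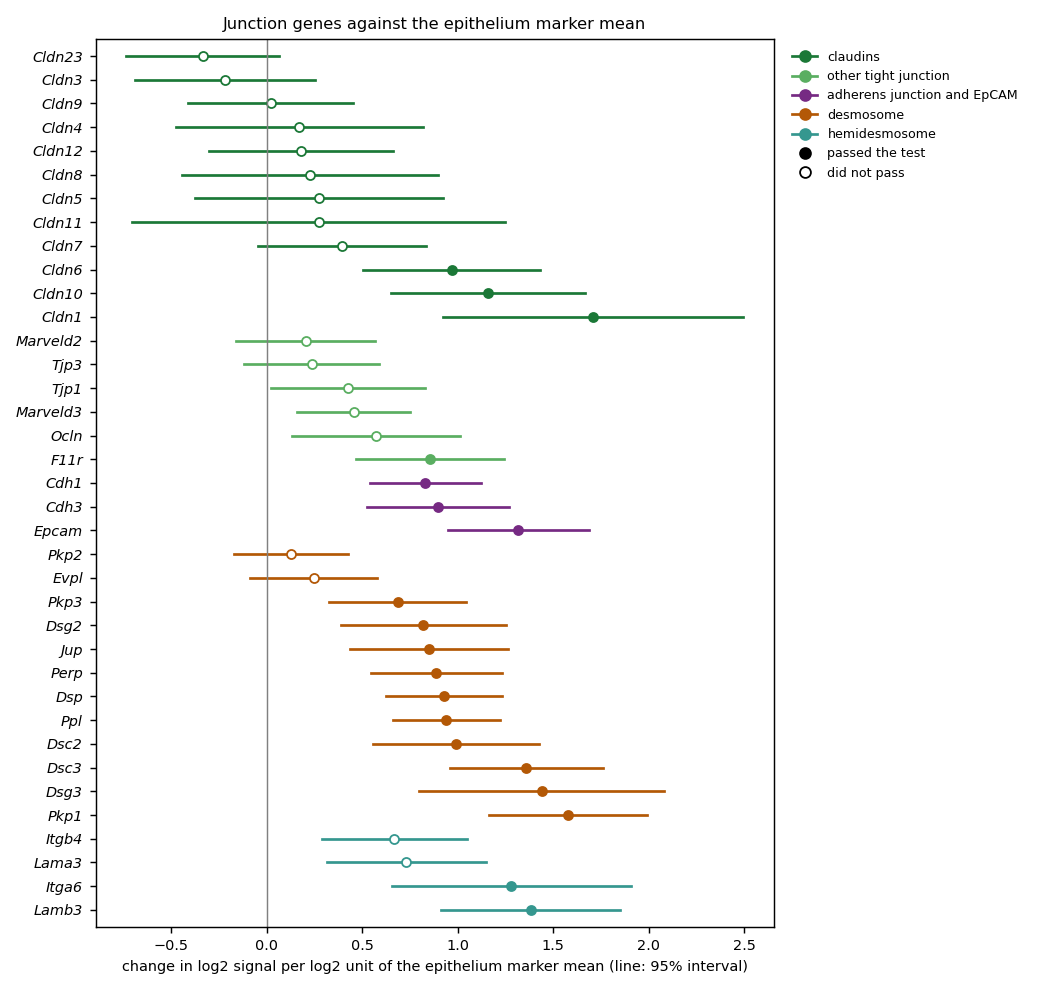
Change in log2 signal of each tested gene per log2 unit of the epithelium marker mean over 16 pools, with genotype and series in the fit and lines for 95% intervals. Filled points (19 genes) passed the test, 10 of the 12 desmosome genes among them, and 9 of the 12 claudins lie between -0.33 and 0.40. Without WT pool 6 only *Epcam*, *Lama3*, *Pkp1* and *Ppl* passed.

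With the epithelium marker mean and the series in the genotype fit, the members lay around 0. Their median difference, *Rsk2-/Y* minus WT, was -0.02, 18 of 37 were above 0, beside 48.6% of all genes, and 0 of 37 passed in limma. Before adjustment, 1 member was higher at p under 0.05 (*Itga6* at 0.30, background 1.74%) and 2 were lower (*Cldn23* at -0.20 and *Cldn4* at -0.27, background 2.31%), counts near those shares. The adjusted p was 1 for each. *Cldn4* and *Cldn8* (-0.22) kept most of their estimate, while *Cldn1* was at 0.02, *Cdh1* at -0.08, *Dsg3* at -0.08 and *Ppl* at -0.02. *Cldn6* was at -0.11 (SE 0.08). The marker mean itself averaged 9.25 ± 0.12 in *Rsk2-/Y* and 9.50 ± 0.18 in WT (SD, n = 8 each), so this fit does not separate them from epithelium content.

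Against the endothelium marker mean (14 genes), 1 of 37 members had a slope that passed, beside 5.45% of genes, so no more than that share. The member was *Cldn11*, at 1.71 (SE 0.23, adjusted p = 0.00198 from limma). *Cldn5*, at 0.79 (SE 0.26, adjusted p = 0.106), lay close to the threshold. It passed without any 1 of 6 pools (WT pools 5, 6 and 7 and *Rsk2-/Y* pools 2, 3 and 8, adjusted p = 0.0698 to 0.0966). With array weights it passed (adjusted p = 0.00176), beside 23.1% of genes above 0. With each array centred on its median it passed (adjusted p = 0.00386), beside 41.7% of genes above 0. So many genes passed in those fits that the calls are not particular to *Cldn5*. The *Cldn11* signal was 8.95, 8.09, 7.82 and 8.11 in the AZN *Rsk2-/Y* pools and 8.01, 8.26, 8.12 and 8.29 in the AZN WT pools. In ABH it was 7.995, 8.35, 8.45 and 8.42 in the *Rsk2-/Y* pools and 8.56, 8.59, 8.20 and 8.53 in the WT pools. The pool at 8.95, *Rsk2-/Y* pool 1, also had the highest endothelium marker mean of all 16 samples, 9.24. Without it *Cldn11* did not pass (adjusted p = 0.171), and neither did any other member, beside 9 of 17201 genes above 0 and 0 below.

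A further 37 genes of junctions and adhesion outside the 38 (claudins of other tissues, polarity proteins, catenins, nectins, connexins and basement membrane partners) were tested as a setting for the members. None passed for genotype in limma (background 0% of genes). At an unadjusted p under 0.05, 6 of 37 were lower (background 3.00%) and 0 of 37 were higher (background 0.993%), and their median was -0.04. Those with the smallest p were the nectins *Pvrl1* (-0.20) and *Pvrl4* (-0.21), the hemidesmosome collagen *Col17a1* (-0.21) and the connexin *Gjb6* (-0.23). Between the series *Gjb2* (0.48) and *Gjb6* (0.27) were higher in AZN (background 5.77% of genes). *Ctnnd1* (-0.31), *Cxadr* (-0.31) and *Pkp4* (-0.27) were lower (background 10.3%). Of 37 genes, these counts were no larger than those shares. On the epithelium marker mean 7 of 37 passed (background 0.861%), from *Lad1* at 1.21 and *Itga3* to *Gja1* at 0.69, with *Pvrl4*, *Cxadr*, *Lsr* and *Col17a1* between.

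Of all genes outside these lists, those most like the members' mean over the 16 pools, by Pearson's r after centring within series, were *Trim29* (0.967), *Cnksr1* (0.962), *Capg* (0.949), *Fam83b* (0.948), *Prss8* (0.946), *Stard10* (0.944), *Mapk13* (0.939) and *Zfp750* (0.938). The points share RNA, array and dissection with the members, and the correlation is a description of these 16 samples.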

How the data were processed

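The authors deposited 1 log2 signal per probe set for each of 16 Affymetrix Mouse Gene arrays. Per the submitters' processing notes the tools were RMA (background correction, equalising of arrays, summary of probes) and Affymetrix Expression Console (version 1.3.1.187). Nothing was normalized further. The precision is limited by the number of arrays. Genotypes come from the labels, and pools were treated as independent. Separate dissections are not documented further, so p-values measure the spread between pools. WT pool 8 and *Rsk2-/Y* pool 1, the unnumbered AZN samples, deviated together from their group means (r = 0.60). No fit took them as a pair, so their independence is in doubt.

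Of 35556 probe sets, the 19979 that pair with a symbol and exceed 5 in at least 1 sample, the study's minimum, were tested with limma 3.58.1 in R 4.3.3 (two-sided). Calls needed a Benjamini-Hochberg adjusted p below 0.1 and more than 1.2-fold change, slopes the adjusted p alone. Background shares are over 17215 genes, 1 probe set each, and a little fewer for slopes, whose markers were left out. Platform symbols were used as given, and older names in the lists were matched to them by synonym. *Pvrl1* and *Pvrl4* are *Nectin1* and *Nectin4* on the platform. On simulated data the test was checked with known changes. Values by pool or by range are given for the 6 members with the smallest p for genotype, the 3 for series, and *Cldn5*, *Cldn11*, *Cdh1*, *Epcam* and *Dsp*; *Cldn1*, *Cldn8*, *Dsg3* and others were described after their values were seen. Members and lists were chosen with earlier results of these data known. Alternatives were the signal filter, scaling, array weights, series and epithelium terms, a Student t-test, single series, and leaving out each pool. Promoters are from RefSeq. Python 3.11.15 was used for tables.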

Additional observations from a re-analysis of the deposited data

Results flagged for a closer look

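Of 76 sets of 8 pools (38 genes in either genotype), 13 held 1 sample far from the other 7, and chance flags about 1 in 20 sets. In 8 sets it was *Rsk2-/Y* pool 3 of AZN, at the low end: *Cldn6* at 9.94, *Cldn10* at 7.94, *F11r* at 8.72, *Cdh3* at 9.52, *Epcam* at 8.395, *Ppl* at 7.84, *Itga6* at 9.74 and *Lamb3* at 7.81. In 4 sets it was WT pool 6 of AZN, low for *Cldn6* at 10.01, *Cdh3* at 9.70 and *Jup* at 10.80, and high for *Cldn23* at 5.995. In the last it was WT pool 5 of AZN, high for *Cldn8* at 8.16. The first of these pools had the lowest epithelium marker mean (8.97) and the highest muscle marker mean (10.34), and WT pool 6 had the lowest and the highest of the WT pools. Without *Rsk2-/Y* pool 3 the log2 fold change of *Cldn6* was -0.31, and without WT pool 6 it was -0.44.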

How the results depend on the processing

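The number of members lower in *Rsk2-/Y* was 0 in all alternatives but ABH alone and leaving out WT pool 6, with 1 each (0 to 1 over left-out pools). Higher in AZN were 2 with array weights and without *Rsk2-/Y* pools 3 and 5 together (1 to 2 over left-out pools), and lower in AZN 8 to 12. Epithelium slopes passed in 11 members with array weights (0.331% of genes), 11 without that pair (0.657%) and 5 with no series in the fit (4 to 19 over left-out pools). Endothelium slopes, tried under alternatives added after the data were seen, passed above 0 in 8 members with arrays centred on their median, beside 41.7% of genes, and in 6 with array weights, beside 23.1% (0 to 3 over left-out pools). With array weights 5 members passed below 0 (*Cldn4*, *Cldn23*, *Dsg2*, *Pkp3* and *Itgb4*), beside 9.89% of genes. The median genotype difference of the members was -0.0163 with the epithelium mean and series in the fit, and -0.23 to -0.15 over left-out pools. Among the members whose values are given by the rule above, signs turned with that fit for *Cldn11* (0.0239), *Epcam* (0.1137), *Dsp* (0.0481) and *Tjp1* (0.073). Members outside that rule, *Cldn1* and *Itga6* among them, turned as well. *Cldn11* was also above 0 in AZN alone (0.0725), without the pair (0.0753) and without *Rsk2-/Y* pool 3 (0.0184). *Tjp1* was above 0 in ABH alone (0.0387) and without WT pool 1 (0.0024) or 4 (0.0099) or *Rsk2-/Y* pool 2 (0.0258), 3 (0.0199) or 4 (0.0087). The cause was not tested. The replicate block of AZN numbers 1 and 3, which do not pair the samples (correlations of -0.05 and 0.01), left 0 members called. The unnumbered AZN samples correlated at 0.60, and that block did not hold them as a pair of their own. What they share is not stated, and its effect on the p-values was not tested.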
